A study of Mus musculus with 20 samples.

Results

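Rgs5, Pdgfrb, Cspg4, Notch3, Kcnj8 and Abcc9 are 6 genes commonly used to mark pericytes, and their expression was followed in a mouse model of CIC-DUX4 sarcoma. All probe sets whose gene symbol was one of the 6 were taken, which gave 10 of the 45141 probe sets on the array. Rgs5 had 4 probe sets of its own, Notch3 had 2, and Pdgfrb and Kcnj8 had 1 each. The 2 probe sets that name Abcc9 also name the long noncoding RNA 5330439B14Rik, so their signal cannot be assigned to either gene and was not counted for Abcc9. For Cspg4 no probe set carried the symbol in the gene table used here, and no value is given. That left 4 genes with a signal of their own. Of the 10 probe sets, 9 passed the filter on low signal, which asked for a signal over the median of the array on 4 or more of 20 arrays. The exception was the Notch3 probe set 1421964_PM_at, over the median on 2 arrays.

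Pericytes are the mural cells that sit on capillaries and small vessels beneath the endothelium. Endothelial cells recruit them by secreting PDGF-B, which binds the receptor Pdgfrb, and Notch3 is a mural receptor that answers to ligands on neighbouring cells. Rgs5 shortens signalling from G protein-coupled receptors, Kcnj8 and Abcc9 form the pore and the regulatory subunit of the vascular ATP-sensitive potassium channel, and Cspg4 is the surface proteoglycan NG2. Mesenchymal cells in culture can also express several of these genes, Pdgfrb in particular.

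Expression was measured on 20 Affymetrix arrays in 4 groups. The 4 eMC empty arrays held mouse embryonic mesenchymal cells given the pMYs-IRES-GFP retrovirus, and the 4 eMC CIC-DUX4 arrays held such cells given pMYs-CIC-DUX4-IRES-GFP, both harvested 48 hours after transduction by spinofection. The 6 CDS tumor arrays held CIC-DUX4 sarcomas that formed from transduced cells under the skin of Balb/c nude mice, and the 6 ES tumor arrays held mouse Ewing sarcomas grown in the same kind of host. The labels give no strain or age for the cells, no age for the hosts and no fusion gene for the Ewing tumors, and they do not say whether arrays of a cultured group came from separate cultures. P-values therefore measure the spread between these samples, which may be technical. Tumor and host are both mouse, so RNA of the transplanted cells and of host vessels was measured together, and in such bulk tissue fewer cells of a type and less RNA per cell cannot be told apart.

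Kcnj8 and Abcc9 are neighbours on chromosome 6. The Kcnj8 probe set and the 2 naming both Abcc9 and 5330439B14Rik were called higher in eMC CIC-DUX4 than in eMC empty, and Rgs5 had the widest range. The promoters of Rgs5, Kcnj8 and Abcc9 are therefore shown. Each runs 5′ to 3′ over the 250 bases before the gene's start in RefSeq's GRCm38.p6 annotation, which held a promoter for 5 of the 6 genes, with motif matches on either strand in capitals.
Rgs5, chr1:169655251-169655500, plus strand: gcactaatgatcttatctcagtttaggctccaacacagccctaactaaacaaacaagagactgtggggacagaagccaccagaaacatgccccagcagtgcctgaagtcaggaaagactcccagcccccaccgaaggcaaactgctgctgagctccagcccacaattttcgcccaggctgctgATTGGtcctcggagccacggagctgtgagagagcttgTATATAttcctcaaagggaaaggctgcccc
Kcnj8, chr6:142571615-142571864, minus strand: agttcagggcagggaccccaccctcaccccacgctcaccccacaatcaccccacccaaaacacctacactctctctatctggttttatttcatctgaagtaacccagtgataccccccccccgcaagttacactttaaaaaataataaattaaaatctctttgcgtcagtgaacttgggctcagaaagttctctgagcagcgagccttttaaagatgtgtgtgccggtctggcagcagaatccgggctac
Abcc9, chr6:142702275-142702524, minus strand: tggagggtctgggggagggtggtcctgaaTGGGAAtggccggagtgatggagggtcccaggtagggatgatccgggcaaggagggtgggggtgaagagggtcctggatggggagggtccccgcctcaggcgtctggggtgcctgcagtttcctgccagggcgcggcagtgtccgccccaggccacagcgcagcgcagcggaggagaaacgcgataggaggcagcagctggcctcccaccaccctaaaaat
The capitals in Rgs5 mark a reverse-strand CCAAT, 67 bases before the start, and a TATATA, 30 bases before it. In Abcc9 they mark the RBPJ core TGGGAA, 221 bases before the start. Both strands of all 5 promoters were searched for the CIC-binding octamers TGAATGAA, TGAATGGA, TCAATGAA and TCAATGGA, the RBPJ core, the CArG box of serum response factor, CCAAT and the TATA letters TATAAA or TATATA. The last 2 motifs were added after the sequences had been seen. Among 32851 promoters of the same length, 3.19% held a CIC octamer, 21.6% the RBPJ core, 1.47% a CArG box, 33.8% CCAAT and 15.6% the TATA letters. The windows of Kcnj8, Notch3 and Cspg4 held no match, which says only that these letters are not in these 250 bases.

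The 4 genes did not share a pattern across the groups. At its highest probe set, Rgs5 was low in cultured cells and high in every tumor, and it was higher in CDS than in ES tumors. Pdgfrb and Notch3 were above background in cultured cells with CIC-DUX4, on the arrays that had a background limit. With the empty vector 2 and 3 of 4 arrays lay below it as deposited, but the limit itself was higher there (5.32 to 8.18 against 2.97 to 4.29). After quantile normalization the means of Pdgfrb were 8.58 with the empty vector and 8.62 with CIC-DUX4, and those of Notch3 were 8.68 and 9.45. Pdgfrb was below background in 4 of 6 ES tumors. Kcnj8 was below background with the empty vector and well above it 48 hours after CIC-DUX4, and so were the 2 probe sets naming Abcc9 and the noncoding 5330439B14Rik. The plot of signals by array shows these levels.

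**Figure D1:**
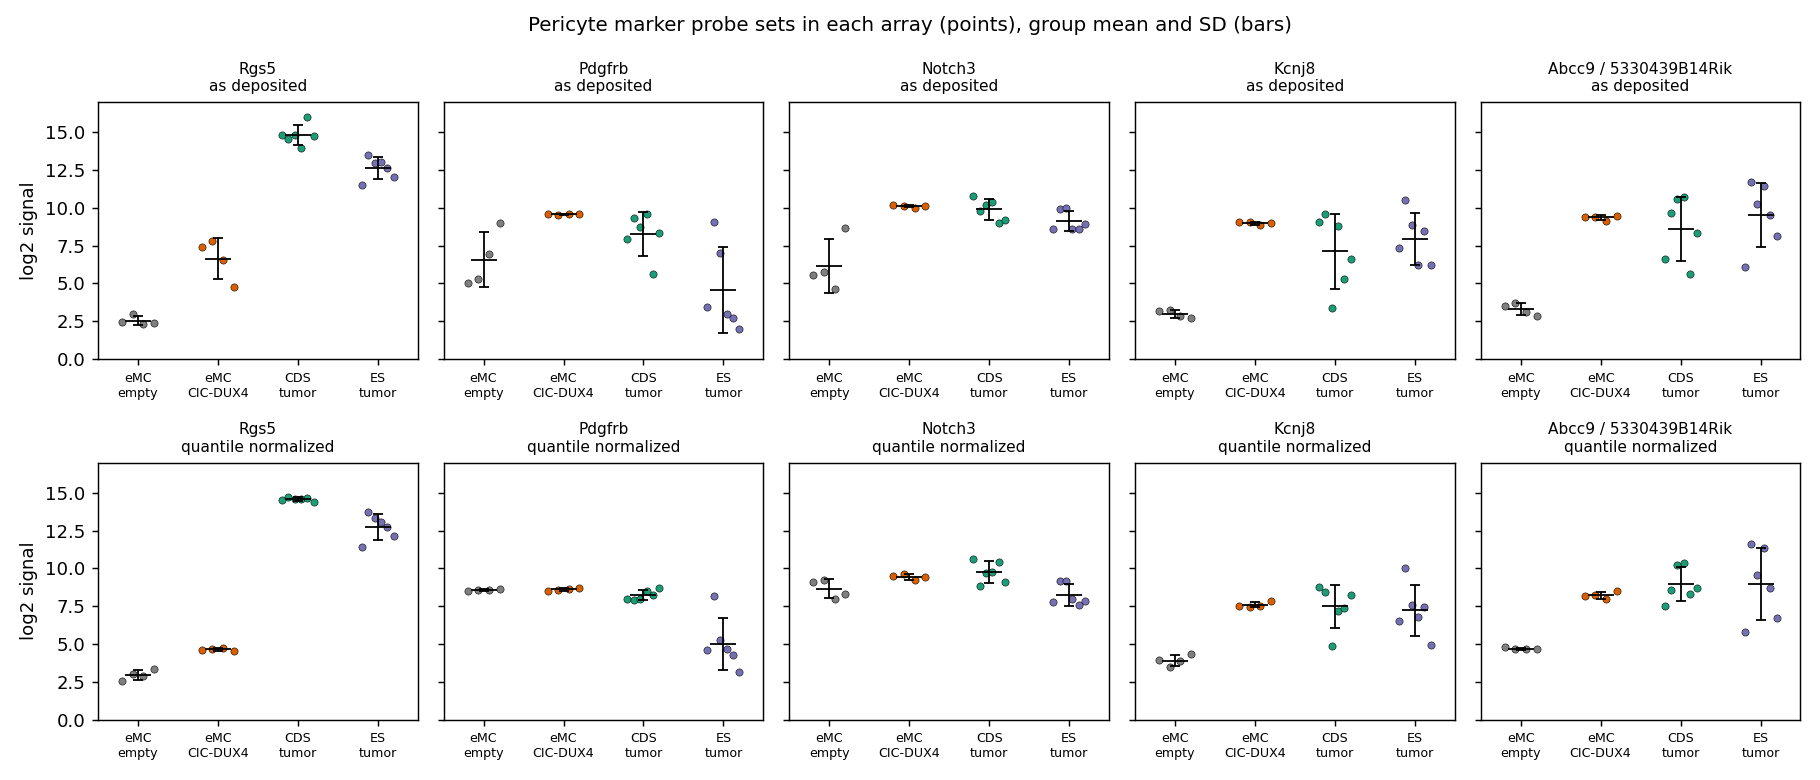
Log2 signal of the highest probe set of each gene in the 20 arrays, as deposited (top) and after quantile normalization (bottom). Points are arrays, and bars are the group mean and SD (n = 4 for each eMC group, n = 6 for each tumor type). Rgs5 separated all 4 groups on both scales, whereas the rise of Pdgfrb from eMC empty to eMC CIC-DUX4 was seen only as deposited.

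Array distributions differed between groups, so the members' differences are given as deposited and, where both matter to the result, after quantile normalization. Genes of other lists are given as deposited, and those named as called had the same call after quantile normalization unless stated. Counts called higher in those lists stand against the share of all probe sets called higher in the same comparison, given below. For counts called lower, CDS against ES tumors had 2342 of 26897 probe sets called lower as deposited and 4228 after quantile normalization. CDS tumors against eMC empty had 1314 and 5373, and ES tumors against eMC empty had 2629 and 5125. The authors' signals had the same trimmed mean on every array (500.1 to 500.3 on the linear scale), but the 75th percentile of log2 signal was 4.10 to 6.97 in eMC empty and 8.53 to 8.94 in eMC CIC-DUX4, with 4.83 to 8.92 in CDS and 7.52 to 8.65 in ES tumors. On 19 arrays the log2 signals formed a low and a high hump. The dip between the humps is used here as the background limit (5.32 to 8.18 in eMC empty, 2.97 to 4.29 in eMC CIC-DUX4, 3.77 to 8.08 in CDS tumors, 4.32 to 5.45 in ES tumors), and a fold against a group below it on every array is given as a lower bound. A fitted log2 difference beside such a bound rests on signals below the limit. The limits were not alike between groups: 11.1 to 27% of probe sets lay above them in eMC empty and 38.6 to 71.4% in eMC CIC-DUX4. A signal below the limit is therefore not the same as an absent transcript. No dip was found on array 6 of eMC CIC-DUX4. That array, array 5 of the same group and CDS tumor 2 had a median log2 signal over 5, where the other arrays lay under 4. The excess of 3′ over 5′ log2 signal of the Actb control probe sets, a measure of RNA quality, was 0.31 to 1.28 in CDS tumors and 0.17 to 0.31 in ES tumors (exact permutation p = 0.00216, adjusted over 18 array tests 0.0286). The part of these differences in the results was not tested.

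A gene was called where its highest probe set had an adjusted p under 0.05 and a log2 fold change of at least 1 on the log2(signal + 1.42) scale, in limma over 26897 probe sets. With CIC-DUX4 against the empty vector, 4 of 4 genes were called higher, while 43.4% of all probe sets were called higher, and the median log2 difference was 3.86 against 1.98 for all probe sets. After quantile normalization 2 of 4 were called higher (Rgs5 and Kcnj8), with 7.56% of all probe sets, and the medians were 1.15 and -0.01. In CDS tumors against eMC empty 3 of 4 were called higher (all but Pdgfrb) on both scales, where 13.2% of all probe sets were called higher as deposited and 18.3% after quantile normalization. The median log2 difference was 3.82 against 0.89 for all probe sets as deposited, and 2.27 against -0.07 after quantile normalization.

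In ES tumors against eMC empty 3 of 4 genes were called higher as deposited, with 25.8% of all probe sets. Quantile normalization left 2 of 4 called higher, with 18.1% of all probe sets, and 1 of 4, Pdgfrb, called lower, with 19.1%. CDS tumors against ES tumors gave 2 of 4 higher (Rgs5 and Pdgfrb) beside 11.1% of all probe sets, and 3 of 4 after quantile normalization, which added Notch3, beside 15.2%. The medians of that comparison were 1.49 against 0.21 for all probe sets as deposited and 1.66 against -0.03 after quantile normalization. Against eMC CIC-DUX4, 1 of 4 genes, Rgs5, was called higher in CDS tumors on both scales, beside 4.47% of all probe sets as deposited and 17.2% after quantile normalization. For ES tumors against eMC CIC-DUX4 it was 1 of 4 higher, Rgs5, and 2 of 4 lower, Pdgfrb and Notch3, on both scales. All probe sets there were called higher in 7.00% and lower in 23.8% as deposited, and higher in 18.0% and lower in 19.3% after quantile normalization. The 6 comparisons share groups, and those that share a group are not independent of each other.

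**Figure D2:**
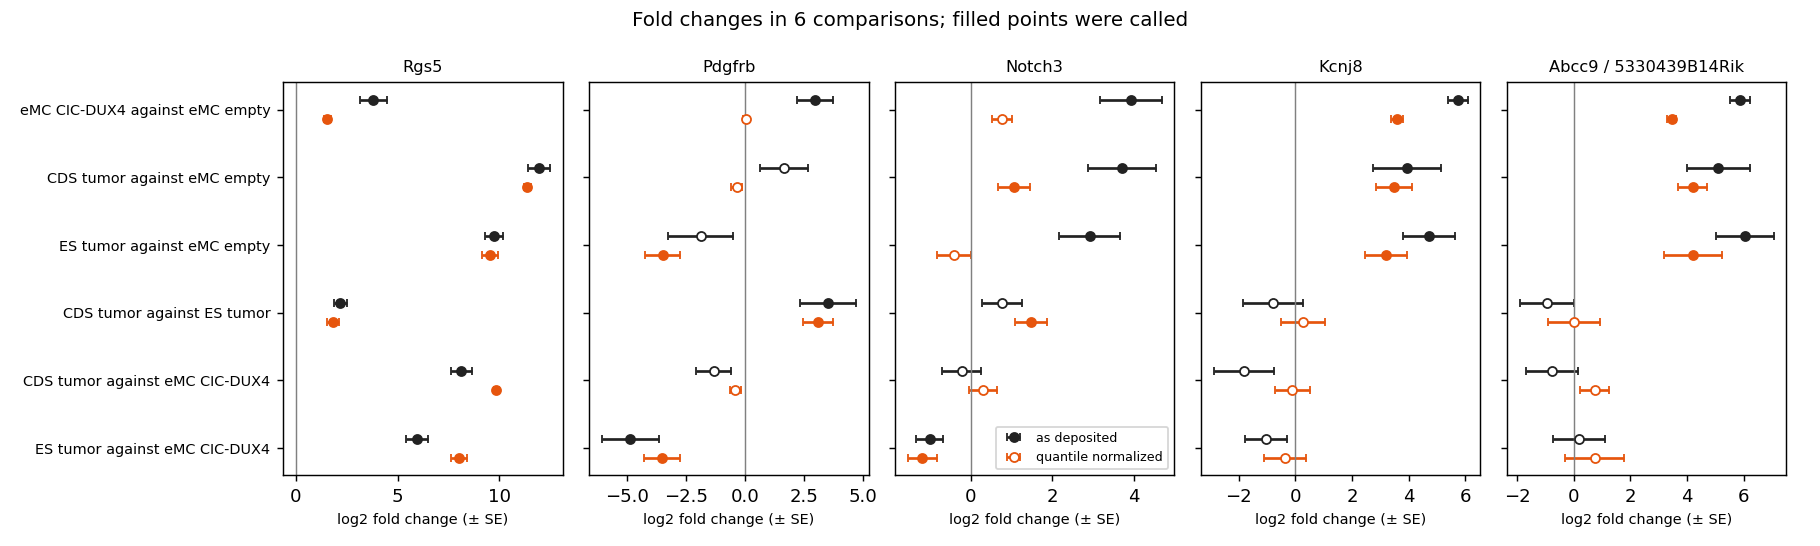
Log2 fold change of each gene's highest probe set in 6 comparisons, with its standard error, as deposited (black) and after quantile normalization (orange). Filled points were called at an adjusted p under 0.05 and a log2 fold change of at least 1. For Rgs5 all 12 points are filled, whereas the call differs between the scales in 2 of the 6 comparisons for Pdgfrb and in 3 for Notch3.

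Rgs5 was the member with the widest range. Its highest probe set, 1417466_PM_at, had a deposited log2 signal of 2.48, 3.00, 2.34 and 2.35 on the 4 arrays with the empty vector, against 7.42, 7.83, 6.52 and 4.79 on those with CIC-DUX4. In CDS tumors it ran from 13.96 over a median of 14.76 to 16.01, and in ES tumors from 11.48 over 12.80 to 13.50. No pair of groups overlapped, in the order CDS tumor, ES tumor, eMC CIC-DUX4 and eMC empty. All 4 eMC empty arrays lay below their background limit, and all other arrays that had a limit lay above it.

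Rgs5 was 4.56-fold higher in CDS than in ES tumors, a log2 difference of 2.19 ± 0.33 (SE, limma adjusted p = 9.27e-05), and after quantile normalization the difference was 1.84 ± 0.30 (adjusted p = 0.000235). Scaling each array to the same median instead gave 1.01 at this highest probe set and ended its call (limma adjusted p = 0.196). On that scale the median of all probe sets in this comparison was -0.86. Against eMC empty, Rgs5 in CDS tumors was higher by at least 253-fold (log2 difference 11.94 ± 0.55 SE, limma adjusted p = 6.79e-12, and 11.38 ± 0.18 after quantile normalization) and in ES tumors by at least 55.3-fold (9.75 ± 0.45, adjusted p = 3.98e-08, and 9.54 ± 0.41). Against eMC CIC-DUX4 the log2 difference was 8.14 ± 0.52 for CDS tumors (limma adjusted p = 1.08e-07) and 5.95 ± 0.55 for ES tumors (9.65e-06), and 9.85 ± 0.13 and 8.01 ± 0.39 after quantile normalization. The step from transduced cells to tumors was wider than the spread within any group.

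In cultured cells the Rgs5 signal was small. The log2 difference of eMC CIC-DUX4 over eMC empty at this probe set was 3.80 ± 0.66 (SE, limma adjusted p = 0.000892), of which 1.83 lay above the median of all probe sets, and 1.54 ± 0.17 after quantile normalization (adjusted p = 1.24e-05). No lower bound above 1-fold could be given, since the background limits of eMC empty reached above the signals of eMC CIC-DUX4. The other 3 probe sets of Rgs5 were not called in this comparison, with log2 differences of 0.60, 1.38 and 1.53 (limma adjusted p = 0.71, 0.313 and 0.291). With the mean of all 4 probe sets the gene was not called either (1.83, limma adjusted p = 0.142).

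The other 3 probe sets of Rgs5 gave the same order of tumors. 1420940_PM_x_at ran from 11.63 over 12.45 to 13.45 in CDS tumors and from 4.11 over 8.25 to 9.73 in ES tumors. 1420941_PM_at ran from 11.09 over 11.30 to 12.21 and from 2.60 over 7.04 to 9.14, and 1420942_PM_s_at from 11.75 over 11.95 to 13.50 and from 7.04 over 9.45 to 10.45. CDS and ES tumors did not overlap at any of them. In ES tumors 1420940_PM_x_at lay below the background limit in 1 of 6 and 1420941_PM_at in 2 of 6. Their log2 differences of CDS over ES tumors were 4.66, 4.89 and 3.23 (limma adjusted p = 0.000113, 0.00055 and 0.00024), all larger than at 1417466_PM_at. The size of the difference in Rgs5 between the tumor types thus depended on the probe set, from 4.56-fold to 29.7-fold. When each array was scaled to the same median, 1420940_PM_x_at and 1420941_PM_at stayed called (log2 differences 3.49 and 3.72, limma adjusted p = 0.0104 and 0.0152). At 1420942_PM_s_at the difference on that scale was 2.05 and missed the threshold (limma adjusted p = 0.0526). In eMC CIC-DUX4 these 3 probe sets were raised in the arrays 5 and 6 or in array 6 alone, the 2 arrays of that group with a high median. 1420940_PM_x_at read 4.29, 6.33, 1.42 and 1.19, 1420941_PM_at read 5.01, 6.27, 1.15 and 1.04, and 1420942_PM_s_at read 0.54, 5.64, 0.71 and 0.56.

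**Figure D3:**
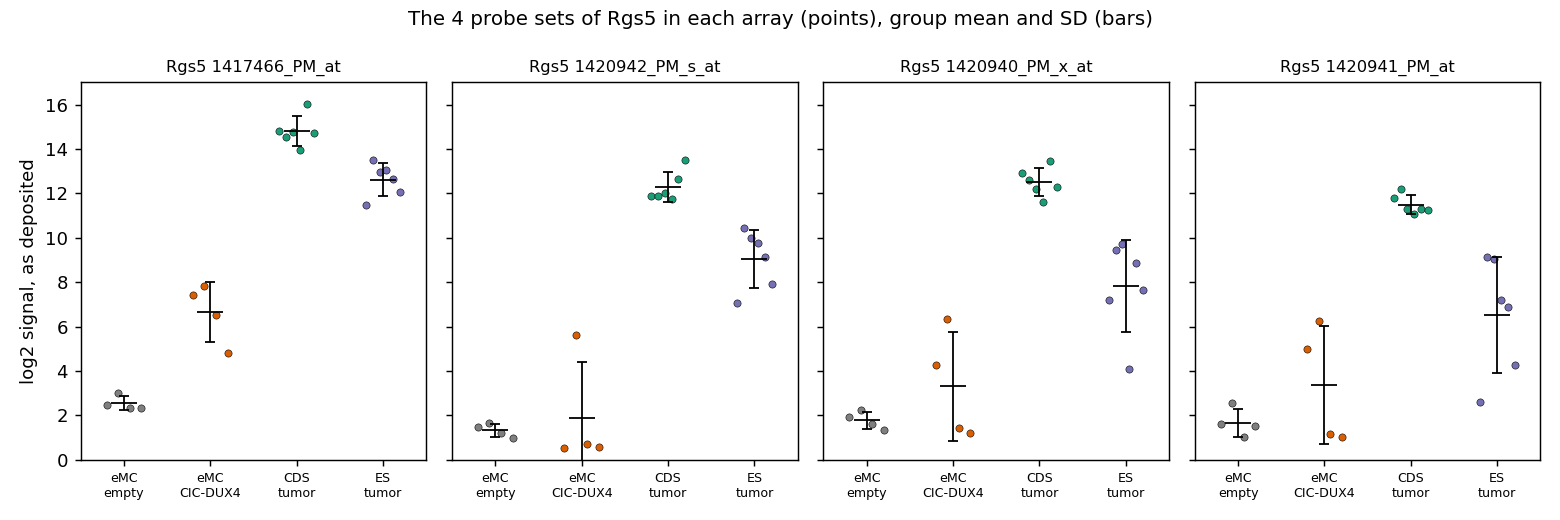
Deposited log2 signal of the 4 probe sets of Rgs5 in the 20 arrays. Points are arrays, and bars are the group mean and SD (n = 4 for each eMC group, n = 6 for each tumor type). CDS tumors sit above all ES tumors at each probe set, and in eMC CIC-DUX4 the 3 probe sets other than 1417466_PM_at are high in no more than 2 arrays.

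Rgs5 belongs to the R4 family of RGS proteins, small accelerators of G protein GTPase activity. Of 7 other R4 genes tested, 1 was called higher and 3 lower in CDS than in ES tumors (median log2 difference 0.27, against 0.21 for all probe sets), and 2 higher and 3 lower after quantile normalization. Rgs8 was lower by a log2 difference of -5.0 ± 1.16 (SE, limma adjusted p = 0.00543), with 5 of 6 CDS tumors below the background limit. Rgs1, found mainly in leukocytes, was called lower too (limma adjusted p = 0.0123). No size is given for Rgs1, since it lay below the background limit in all 6 CDS tumors and no bound above 1-fold could be set. Against eMC empty, 2 of the 7 were called higher in CDS tumors, and 3 after quantile normalization. Rgs3 was at 4.31 ± 0.93 (limma adjusted p = 0.0026) and Rgs2 at 3.93 ± 1.01 (0.00948). In eMC CIC-DUX4 5 of the 7 were called higher than in eMC empty as deposited and 3 after quantile normalization, beside 43.4% and 7.56% of all probe sets.

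Pdgfrb, the receptor through which PDGF-B recruits pericytes, was high in cultured cells with CIC-DUX4 and spread widely with the empty vector. Its log2 signal was 5.04, 5.32, 6.96 and 8.97 in the eMC empty arrays and 9.59, 9.53, 9.59 and 9.60 in the eMC CIC-DUX4 arrays. In CDS tumors it ran from 5.60 over a median of 8.54 to 9.61, and in ES tumors from 1.98 over 3.22 to 9.07. The eMC CIC-DUX4 arrays were nearly identical, the eMC empty arrays were spread over almost 4 log2 units, and arrays below their background limit were 2 of 4 with the empty vector (4 and 5), 1 of 6 CDS tumors (5) and 4 of 6 ES tumors, while ES tumors 46 and 47 lay within the range of CDS tumors. After quantile normalization the eMC empty arrays read 8.52 to 8.62 and the eMC CIC-DUX4 arrays 8.54 to 8.74, so the gap between the cultured groups depended on the scale.

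As deposited, Pdgfrb was higher in eMC CIC-DUX4 than in eMC empty by a log2 difference of 2.98 ± 0.78 (SE, limma adjusted p = 0.00919). Quantile normalization gave 0.04 ± 0.10 (adjusted p = 0.747), and without arrays 5 and 6 of eMC CIC-DUX4, which have a high median, the log2 difference was 3.00 and missed the threshold (limma adjusted p = 0.0688). CDS tumors exceeded ES tumors by 3.53 ± 1.18 (limma adjusted p = 0.0397) as deposited and by 3.12 ± 0.63 (0.00135) after quantile normalization, and the groups overlapped on both scales. As deposited, this call was lost without any 1 of the tumors CDS 1, 2, 3, 4 or 6 or ES 41, 48, 49 or 51, with limma adjusted p from 0.0523 to 0.0898. Against eMC CIC-DUX4, ES tumors were lower by a log2 difference of -4.85 ± 1.21 (limma adjusted p = 0.00776) and by -3.51 ± 0.75 after quantile normalization (0.00235). Against eMC empty the difference of ES tumors was -1.87 ± 1.38 as deposited (limma adjusted p = 0.276) and -3.47 ± 0.74 after quantile normalization (0.00245), where it was called. CDS tumors did not pass the test against either cultured group (log2 difference 1.66 ± 1.00 to eMC empty and -1.32 ± 0.73 to eMC CIC-DUX4, limma adjusted p = 0.233 and 0.214; -0.35 and -0.40 after quantile normalization). In the order of deposited means, which was eMC CIC-DUX4, CDS tumor, eMC empty and ES tumor, no neighbours differed beyond the threshold.

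Among 4 genes tested of the PDGF ligands and the other receptor, 1 was called higher and 1 lower in CDS than in ES tumors, on both scales (median log2 difference 0.82, against 0.21 for all probe sets). Pdgfb, which encodes the ligand that endothelial cells release, was higher by 3.43 ± 1.03 (SE, limma adjusted p = 0.0244), with means of 6.59 and 2.93. It lay below the background limit in 3 of 6 CDS tumors and 5 of 6 ES tumors. Pdgfra, the receptor of many fibroblast-like cells, was lower by a log2 difference of -4.95 ± 0.98 (limma adjusted p = 0.0015), with means of 4.14 and 9.24. It lay below the limit in 4 of 6 CDS tumors. Against eMC empty, 2 of the 4 were called higher in CDS tumors on both scales, and 2 were called lower after quantile normalization, where the median was 0.01. Pdgfc was higher by 2.79 ± 0.40 (limma adjusted p = 5.3e-05). Pdgfb was called higher (limma adjusted p = 0.0234) with no size given, since it lay below the background limit on all 4 eMC empty arrays and in 3 of 6 CDS tumors and no bound above 1-fold could be set. In eMC CIC-DUX4 2 of the 4 were called higher than in eMC empty as deposited and 1 after quantile normalization, beside 43.4% and 7.56% of all probe sets.

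Notch3 was read by 1421965_PM_s_at, and its log2 signals with the empty vector were 5.55, 5.73, 4.61 and 8.68. With CIC-DUX4 they were 10.16, 10.14, 10 and 10.13. CDS tumors ran from 9.0 over 9.98 to 10.79, and ES tumors from 8.57 over 8.79 to 9.99. The eMC CIC-DUX4 arrays agreed closely, 3 of 4 eMC empty arrays lay below their background limit, and the tumor types overlapped. The second probe set, 1421964_PM_at, lay below the background limit in every tumor and every eMC empty array and was not tested.

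Notch3 was higher in eMC CIC-DUX4 than in eMC empty by a log2 difference of 3.93 ± 0.76 (SE, limma adjusted p = 0.00176), of which 1.95 lay above the median of all probe sets. Quantile normalization reduced it to 0.77 ± 0.24 (adjusted p = 0.0188), under the required fold. In CDS tumors the difference to eMC empty was 3.71 ± 0.84 (limma adjusted p = 0.0037) and 1.07 ± 0.39 after quantile normalization (0.0362). For ES tumors it was 2.92 ± 0.74 (limma adjusted p = 0.00647), but -0.41 ± 0.42 after quantile normalization (0.432), a change of direction. CDS and ES tumors differed by 0.78 ± 0.49 (limma adjusted p = 0.239) as deposited and by 1.48 ± 0.40 (0.00847) after quantile normalization. ES tumors were lower than eMC CIC-DUX4 by a log2 difference of -1.0 ± 0.33 (limma adjusted p = 0.0312), which was the median of all probe sets in that comparison, -1.03, to within 0.03, and the call was lost without any 1 of ES 41, 48, 49 or 51 or any 1 of the eMC CIC-DUX4 arrays. After quantile normalization the difference of ES tumors to eMC CIC-DUX4 was -1.18 ± 0.36 (limma adjusted p = 0.017) and was called. The median of all probe sets there was 0.04. CDS tumors and eMC CIC-DUX4, adjacent in order, did not pass the test (log2 difference -0.22 ± 0.47, limma adjusted p = 0.767).

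Of 11 tested genes of the Notch receptors, ligands and targets other than Notch3, 5 were called higher and 1 lower in CDS than in ES tumors, the same counts on both scales (median log2 difference 1.71 as deposited and 0.79 after quantile normalization). Notch4, a receptor of endothelial cells, was higher by 7.45 ± 0.79 (SE, limma adjusted p = 1.73e-06), and the Notch target Hey1 by 6.51 ± 0.87 (2.76e-05). In ES tumors Notch4 lay below the background limit in 4 of 6 and Hey1 in 3 of 6. The gene called lower was Hey2, with mean log2 signals of 2.47 in CDS and 6.33 in ES tumors. Hey2 lay below the limit in all 6 CDS tumors and in 2 of 6 ES tumors. Against eMC empty, 4 of the 11 were called higher in CDS tumors, with Notch4 at least 34.0-fold and Hey1 at least 35.4-fold higher (limma adjusted p = 8.42e-09 and 2.7e-08). After quantile normalization these counts were 5 higher and 1 lower. With CIC-DUX4 in cultured cells 4 of 11 were called higher as deposited, beside 43.4% of all probe sets. After quantile normalization 0 were called in limma, beside 7.56% of all probe sets, and 4 had an unadjusted p under 0.05.

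Kcnj8, the pore subunit of the vascular ATP-sensitive channel, separated the cultured groups most widely among the 4 genes. The empty vector arrays read 3.19, 3.24, 2.82 and 2.73 on the log2 scale, and the CIC-DUX4 arrays 9.05, 9.03, 8.83 and 8.98. CDS tumors ran from 3.34 over 7.72 to 9.56 and ES tumors from 6.19 over 7.91 to 10.54. Every eMC empty array and 3 of 6 CDS tumors (3, 5 and 6) lay below their background limit, while all ES tumors lay above it, and the tumor types overlapped.

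Kcnj8 with CIC-DUX4 lay at least 4.45-fold above its level with the empty vector, with a log2 difference of 5.74 ± 0.34 (SE, limma adjusted p = 1.58e-05) and of 3.57 ± 0.21 after quantile normalization (4.26e-08). The difference lay 3.76 above the median of all probe sets. When each array was scaled to the same median, the value was 4.13 and the gene was not called (limma adjusted p = 0.2), on a scale where 0 of the 26897 probe sets were called in limma and 6189 had an unadjusted p under 0.05. CDS tumors exceeded eMC empty by 3.93 ± 1.20 (limma adjusted p = 0.0273; at least 1.23-fold), and by 3.48 ± 0.63 after quantile normalization. The call as deposited was lost without CDS tumor 4 or without any 1 of the eMC empty arrays (0.0506 to 0.074). ES tumors exceeded eMC empty by 4.71 ± 0.92 (limma adjusted p = 0.00132; at least 2.16-fold) and by 3.20 ± 0.75 after quantile normalization. The neighbours in the order eMC CIC-DUX4, ES tumor and CDS tumor did not differ beyond their spread (ES tumors against eMC CIC-DUX4 -1.03 ± 0.75, CDS against ES tumors -0.79 ± 1.07, limma adjusted p = 0.269 and 0.607; -0.37 and 0.27 after quantile normalization).

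Of the 2 probe sets that name both Abcc9 and 5330439B14Rik, 1435752_PM_s_at was called above eMC empty in the same 3 groups as Kcnj8. With the empty vector 1435752_PM_s_at read 3.51, 3.69, 3.12 and 2.83, and with CIC-DUX4 9.40, 9.41, 9.15 and 9.46. In CDS tumors it ran from 5.62 over 8.99 to 10.69, and in ES tumors from 6.10 over 9.89 to 11.69. The cultured groups did not overlap, whereas the tumor types did, with a log2 difference of -0.95 ± 0.97 (limma adjusted p = 0.487). eMC CIC-DUX4 was at least 5.79-fold above eMC empty at this probe set (log2 difference 5.87 ± 0.36, limma adjusted p = 1.58e-05, and 3.45 ± 0.17 after quantile normalization), and at least 1.56-fold at 1435751_PM_at (4.27 ± 0.48, adjusted p = 6.22e-05). CDS and ES tumors were at least 3.38-fold and 6.53-fold above eMC empty at 1435752_PM_s_at (limma adjusted p = 0.00306 and 0.000453). At 1435751_PM_at neither tumor type was called against eMC empty as deposited (CDS tumors 3.22 ± 1.14, ES tumors 2.71 ± 1.36, limma adjusted p = 0.0526 and 0.117), with 3 of 6 tumors of each type below the background limit, and after quantile normalization CDS tumors were called (2.52 ± 0.42, 0.000304) but not ES tumors (1.89 ± 0.94, 0.114). A probe set of 5330439B14Rik alone, 1454117_PM_at, lay below the background limit on all 19 arrays that had one. Of the channel's pancreatic and neuronal counterparts, Kcnj11 was the 1 tested; its log2 difference of CDS over ES tumors was -0.48, and it was called higher in eMC CIC-DUX4 as deposited (2.83 ± 0.76, limma adjusted p = 0.0105) but not after quantile normalization (-0.46, 0.387).

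Other genes of mural cells were called in both directions. Of 14 tested, 1 was called higher and 2 lower in CDS than in ES tumors, and 2 higher and 4 lower after quantile normalization (median log2 difference 0.68 and 0.13, against 0.21 and -0.03 for all probe sets). Tbx18, a transcription factor of mural cells and their precursors, was lower by a log2 difference of -5.85 ± 0.77 (SE, limma adjusted p = 2.55e-05), with means of 5.72 and 11.63, and Steap4 by -3.19 ± 0.87 (0.0141). In CDS tumors Tbx18 lay below the background limit in 3 of 6 and Steap4 in 2 of 6. Against eMC empty, CDS tumors had 3 of the 14 called higher and 2 lower, where 13.2% of all probe sets were called higher. After quantile normalization these counts were 3 and 4, with 18.3% called higher. Art3 was at least 4.27-fold higher (limma adjusted p = 0.000657), and Steap4 was lower by a log2 difference of -4.41 ± 0.97 (0.00301). In ES tumors 5 of the 14 were called higher and 2 lower against eMC empty, where 25.8% of all probe sets were called higher. After quantile normalization the counts in ES tumors were 5 and 4, with 18.1% called higher.

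Genes of the smooth muscle contractile apparatus gave 0 of 6 called higher and 1 lower in CDS than in ES tumors in limma, on both scales, and 3 higher as deposited at an unadjusted p under 0.05 (1 after quantile normalization). The gene called was Mylk, the myosin light chain kinase (log2 difference -1.94 ± 0.65, adjusted p = 0.04). Acta2, the smooth muscle actin that is also abundant in cultured mesenchymal cells, was lower in CDS tumors than in eMC empty by a log2 difference of -2.33 ± 0.27 (limma adjusted p = 3.54e-06). Of 7 genes of signalling between endothelial and mural cells, 4 were called higher in CDS than in ES tumors (3 after quantile normalization). They included the adhesion protein Cdh2 (4.99 ± 1.34, limma adjusted p = 0.0132) and Tgfb1 (2.52 ± 0.84, 0.0393, at least 1.15-fold). Cdh2 lay below the background limit in 4 of 6 ES tumors, and Tgfb1 in 4 of 6 CDS tumors and all 6 ES tumors. Vegfa, the growth factor of vessels, was higher in CDS tumors than in eMC empty by 6.06 ± 0.72 (limma adjusted p = 4.37e-06).

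Most endothelial markers were called higher in both tumor types than in eMC empty. Of 13 tested, 13 were called higher in CDS tumors and 12 in ES tumors against eMC empty (13 and 11 after quantile normalization). Between the tumor types, 4 were called higher in CDS than in ES tumors (8 after quantile normalization). The shares of all probe sets called higher in these comparisons were 13.2%, 25.8% and 11.1% (18.3%, 18.1% and 15.2% after quantile normalization). The log2 of the summed signal of the 14 listed markers, after quantile normalization, was 8.02 to 8.55 in eMC empty, 8.41 to 8.77 in eMC CIC-DUX4, 13.59 to 13.89 in CDS tumors and 9.79 to 12.31 in ES tumors, with no overlap between the tumor types. In eMC empty all 14 lay below the background limit on every array. Cdh5, the adhesion protein of endothelial junctions, had a mean log2 signal of 12.07 in CDS tumors, 8.69 in ES tumors and 2.41 in eMC empty.

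Whether tumors with more endothelial RNA also had more of each member's RNA was examined within each tumor type, over 6 tumors, with the mean of the 13 kept endothelial markers after quantile normalization. Among ES tumors Rgs5 followed it, with Pearson's r = 0.98 (exact permutation p = 0.00139, adjusted over 10 tests 0.0139) and Spearman's rho = 1 (exact permutation p = 0.00278, adjusted 0.0278). Without the 2 tumors farthest from the median r was 0.94. On the values as deposited r was 0.77 (exact permutation p = 0.0681, adjusted 0.144), so the call depended on the scale. The r of the other genes in ES tumors was 0.71 for Pdgfrb, 0.77 for Notch3, 0.80 for Kcnj8 and 0.90 for the Abcc9 probe set, with adjusted exact permutation p of 0.167, 0.167, 0.111 and 0.0926. Their rho was 0.83, 0.83, 0.89 and 0.94 (adjusted exact permutation p = 0.0972, 0.0972, 0.0833 and 0.0556), and r without the 2 farthest tumors was 0.90, 0.95, 0.86 and 0.42, so that the relation of the Abcc9 probe set rested on those 2 tumors.

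Among CDS tumors, whose endothelial means spanned only 8.43 to 9.12 against 5.28 to 8.04 in ES tumors, none of the members passed, and 1 had an unadjusted p under 0.05. Notch3 had r = 0.85 (exact permutation p = 0.0278, adjusted 0.0926; rho = 0.94, exact permutation p = 0.0167, adjusted 0.0556; r = 0.93 without the 2 farthest tumors). The r of the others was 0.39 for Rgs5, -0.54 for Pdgfrb, 0.03 for Kcnj8 and -0.27 for the Abcc9 probe set, with rho of 0.03, -0.09, 0.14 and -0.49 and adjusted exact permutation p of r from 0.395 to 0.94. As deposited, the sign turned for Rgs5 (r = -0.84) and for Pdgfrb (r = 0.87), both with an adjusted exact permutation p of 0.0417, and rho was -0.83 and 0.94 (adjusted 0.146 and 0.0833). The difference between the tumor types in these correlations was not tested.

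**Figure D4:**
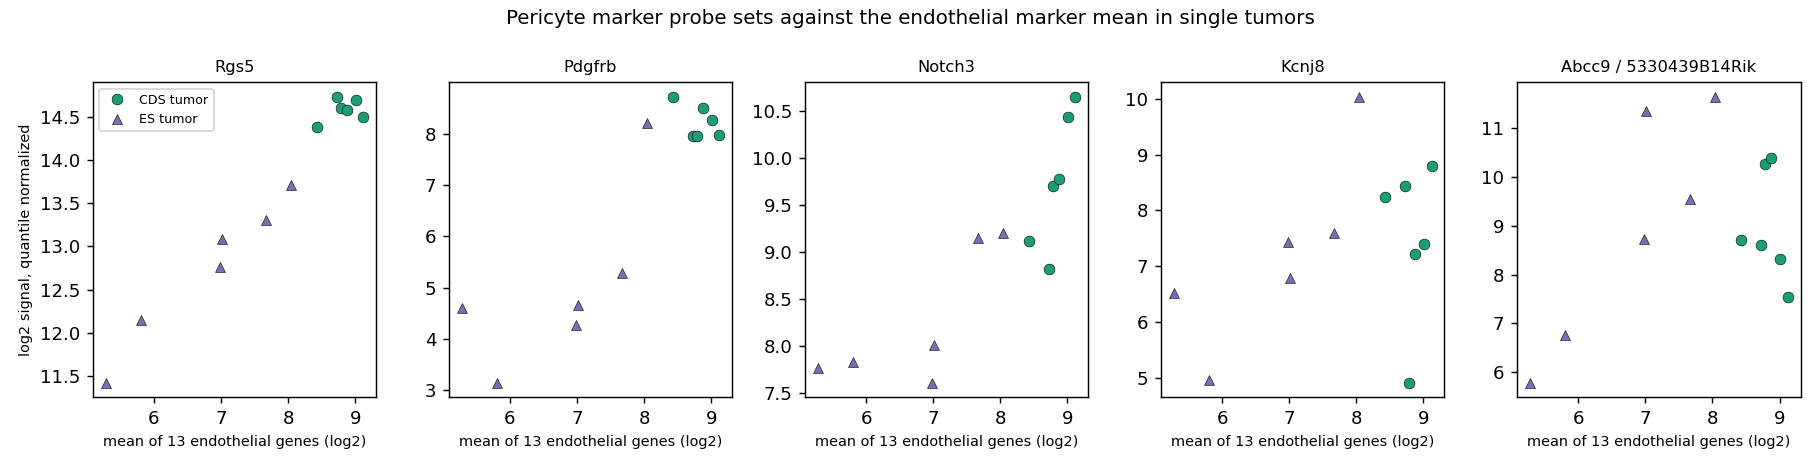
Quantile-normalized log2 signal of each member's highest probe set (y axis) against the mean log2 signal of 13 endothelial markers (x axis) in single tumors, 6 CDS (circles) and 6 ES (triangles). In ES tumors Rgs5 rises from 11.42 to 13.71 with the endothelial mean, whereas the CDS tumors lie close together at 14.38 to 14.73.

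Markers of further cell types also differed between the groups. None of 10 macrophage markers was called in CDS against ES tumors in limma as deposited (2 lower at an unadjusted p under 0.05), and 1 was called lower after quantile normalization. Against eMC empty 4 of the 10 were called higher in CDS tumors, beside 13.2% of all probe sets. After quantile normalization 5 were called higher, beside 18.3%, and 1 lower. Fibroblast markers gave 1 of 7 higher in CDS tumors between the tumor types, Col1a1, and 2 lower of 7 in CDS tumors against eMC empty, Dcn and Lum. Quantile normalization gave 3 higher between the tumor types and 3 lower against eMC empty. Cartilage markers gave 3 of 5 higher in CDS than in ES tumors, with Col2a1 at least 294-fold higher. Glial progenitor markers gave 3 of 4 higher, and 2 after quantile normalization. All 4 lay below the background limit in 4 or 5 of 6 CDS tumors and in all 6 ES tumors. For Olig1 and Olig2, called on both scales, no bound above 1-fold could be set. Skeletal muscle markers gave none of 8 called in limma and none at an unadjusted p under 0.05, with a log2 summed signal of 10.14 to 18.45 in CDS and 4.28 to 17.85 in ES tumors. Their part in the levels of the members was not tested.

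The genes whose pattern over the 20 arrays was most like each member's, by Pearson's r on quantile-normalized values, are given as a description, since arrays of a group share a source. For Rgs5 they were Aplnr, a receptor of endothelial cells (r = 0.991), Esam, which is also among the endothelial markers used here (0.987), and Dusp6, an ERK phosphatase (0.985). For Pdgfrb they were Bgn (0.960), Gpc6 (0.956) and Meis1 (0.954). Those of Notch3 were Slc12a4 (0.829), Ramp3 (0.807) and Mfap4 (0.805), and those of Kcnj8 were Sparcl1 (0.835), Esm1 (0.824) and Pla2g7 (0.799). The probe set naming Abcc9 and 5330439B14Rik was closest to Kif1b (0.913), Rilpl1 (0.906) and Sparcl1 (0.882).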

How the data were processed

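The deposited series matrix holds 1 log2 signal per probe set and array; per the submitters' processing notes the authors computed signals with MAS5, and the version, scaling target and annotation are not stated by the sources used here. The values returned to the linear scale had a trimmed mean (2% at each end) of 500.1 to 500.3 on each array, and 0.0111 to 5.00% of values were 0. Gene symbols came from the platform table: of 45037 probe sets without the 104 controls, 28898 had 1 symbol, 551 several and 15588 none, and 28689 symbols matched RefSeq. An offset of 1.42 (0.25 of the median of the array medians) was added before log2, and 26897 probe sets passed the filter. Each pair of groups was fitted alone in limma 3.58.1 under R 4.3.3 (lmFit, then eBayes with a trend), with Benjamini-Hochberg adjustment over all 26897. A gene was read by its probe set of the highest mean. Quantile normalization was run as an alternative for every result. The script was tested on simulated data.

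Correlations and array measures used exact two-sided permutation tests. The plan counted 12 correlations, of which 10 were run, because Cspg4 had no probe set. A lower bound sets the bright group's mean against the mean of the dim group's background limits, each array's lowest density between log2 signals of 2 and 9 (bandwidth 0.35), or the dim signal where that is higher. From each other gene list, the text names up to 2 genes of the largest change called in the same direction on both scales in CDS tumors against ES tumors and against eMC empty, or else the gene of the highest mean, and for likeness the 3 genes of the highest r. Hey2 is named in addition, as the gene of its list called lower in CDS than in ES tumors. The members and lists were chosen with earlier results of these data known. The number of arrays, 4 or 6 a group, limits the precision.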

Additional observations from a re-analysis of the deposited data

Results flagged for a closer look

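The Rgs5 probe set 1420942_PM_s_at stood apart in array eMC CIC-DUX4 6, where its log2 signal was 5.64 and the nearest of the other 3 arrays of the group read 0.71. The gap was 0.967 of the group's range (n = 4). After quantile normalization array 6 read 1.53, against 1.45, 1.51 and 1.39 on the arrays 5, 7 and 8, so it stood apart only as deposited. This array also had the highest median log2 signal of all arrays, 7.03. The search covered 40 combinations of probe set and group, of which 1 stood out. Chance gives about 1 in 20, so 1 of 40 is no more than chance gives.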

How the results depend on the processing

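Of the counts of called genes, quantile normalization changed 4 called to 2 for eMC CIC-DUX4 against eMC empty and 2 to 3 for CDS against ES tumors. For ES tumors against eMC empty it changed 3 higher to 2 higher and 1 lower. Scaling each array to the same median gave 0 for eMC CIC-DUX4 against eMC empty in limma (2 at an unadjusted p under 0.05) and 1 for CDS tumors against eMC empty (3 as reported). It gave 0 for CDS against ES tumors (2 as reported, and 0 at an unadjusted p under 0.05) and 1 for ES tumors against eMC CIC-DUX4 (3 as reported). For CDS against ES tumors the count was 1 with an offset of 1.0 of the median, at an adjusted p under 0.01, and without the arrays of high median, and 1 to 2 when each array was left out in turn. Without the arrays of high median it was 1 for ES tumors against eMC CIC-DUX4. Replicate numbers shared between groups were not taken to pair the arrays. Same-numbered deviations correlated from -0.21 to 0.51 as deposited and from -0.02 to 0.04 after quantile normalization, which does not settle whether the numbers mark pairs. With the replicate number as a replicate block the count for CDS tumors against eMC CIC-DUX4 was 3 in place of 1, with Pdgfrb at -2.57 and Kcnj8 at -3.05 lower in the tumors, and Kcnj8 in CDS tumors against eMC empty had an adjusted p of 0.0591 in limma. Correlated genes numbered 2 as deposited (Rgs5 and Pdgfrb in CDS tumors) and 2 without the arrays of high median (Rgs5 in ES tumors and Notch3 in CDS tumors), against 1. Directions turned under quantile normalization for Pdgfrb in CDS tumors against eMC empty (-0.35), Notch3 in ES tumors against eMC empty (-0.41), Kcnj8 in CDS against ES tumors (0.27) and Notch3 in CDS tumors against eMC CIC-DUX4 (0.30). Under median scaling they turned for Notch3 between CDS and ES tumors (-0.39) and in either tumor type against eMC CIC-DUX4 (0.60 and 0.99), and for Kcnj8 in ES tumors against eMC CIC-DUX4 (0.94). The cause was not tested. Among calls of all probe sets, the share called higher in eMC CIC-DUX4 against eMC empty was 91.2% as deposited and 54.7% after quantile normalization, and in CDS against ES tumors 56.1% as deposited and 16.4% after median scaling.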

Other observations

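The genes beside Kcnj8 and Abcc9 on chromosome 6 were looked at after the values of Kcnj8 and of the probe sets naming Abcc9 had been seen. In RefSeq's order the locus runs Spx, Gys2, Ldhb, 3 noncoding genes, Kcnj8, Abcc9 with 5330439B14Rik inside it on the opposite strand, and Cmas, so that 2 protein-coding genes lie between Spx and Kcnj8. Spx, which encodes the neuropeptide spexin, exceeded its eMC empty level by at least 517-fold in CDS tumors (limma adjusted p = 8.82e-13), whereas it lay below the background limit in all ES tumors and all eMC empty arrays, with highest log2 signals of 2.26 and 2.51. In eMC CIC-DUX4 it was not called (adjusted p = 0.172 in limma), and after quantile normalization its log2 difference of 0.84 was under the required fold (limma adjusted p = 0.000335). Ldhb, a lactate dehydrogenase subunit, had a log2 difference of CDS tumors over eMC empty of 0.84 ± 0.39 (SE) at 1416183_PM_a_at and of 1.27 ± 0.41 at 1448237_PM_x_at (limma adjusted p = 0.128 and 0.0368), of which the second was called. Cmas had 0.64 ± 0.48 (limma adjusted p = 0.327). In eMC CIC-DUX4 against eMC empty the log2 differences were 0.15 and 0.25 for Ldhb and 0.73 for Cmas, none of them called in limma (adjusted p = 0.442, 0.328 and 0.0815), beside 5.74 for Kcnj8. After quantile normalization they were 0.42, 0.25 and 0.41 (limma adjusted p = 1.91e-05, 0.00325 and 4.32e-05), below the threshold only in fold size, beside 3.57 for Kcnj8. Gys2 lay below the background limit on all 19 arrays that had one. The differences between neighbours were not tested.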
